A study of Mus musculus with 12 samples.

Results

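A set of 10 genes that mark macrophages was followed through RNA of mouse dorsal root ganglia, which lie beside the spinal cord and hold the cell bodies of sensory neurons. These are C1qa, C1qb, C1qc, Tyrobp, Trem2, Csf1r, Cx3cr1, Aif1, Cd68 and Mrc1, a named list of 10 among 35583 genes listed in the files. The list was chosen with earlier results of these data known. All 10 were among the 18875 genes tested in 12 libraries, so the filter on low counts removed none. The libraries were labelled as 1 Q84 male, 5 Q84 females, 3 wild-type (WT) males and 3 WT females, all at 24 weeks of age. YAC Q84 is a mouse model of spinocerebellar ataxia type 3 (SCA3), in which a yeast artificial chromosome brings in human ATXN3 with a long CAG repeat, and WT mice are its controls. Poly(A) RNA of the whole ganglion was sequenced, so fewer cells of a type and less RNA per cell cannot be told apart. Whether each library is 1 animal is not in the labels, and p-values cover only the spread between libraries, which may be technical.

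Ganglia hold resident macrophages that lie among the satellite glia and around vessels, take up debris and react to nerve injury. Their survival depends on CSF1R, the receptor for CSF1 and IL-34, while CX3CR1 is the receptor for the neuronal chemokine fractalkine. C1QA, C1QB and C1QC are the chains of C1q, which starts the classical complement pathway. TREM2 is a lipid-sensing receptor that signals through the adaptor TYROBP, also called DAP12. AIF1 (IBA1) is a calcium-binding protein of the macrophage cytoskeleton, CD68 a lysosomal glycoprotein and MRC1 (CD206) the mannose receptor of tissue-resident macrophages.

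One transcript of Atxn3, of 1000 bases, was used as the check of the genotype labels. This transcript lay at 62.7 to 79.4 TPM (a transcript's share of all transcripts, scaled to length and a fixed total) in Q84 male 1 and Q84 females 1 to 4, and at 0.285 TPM or less in 5 WT libraries. It was at 0.0612 TPM in the library labelled Q84 female 5 and at 34.0 TPM in that labelled WT female 2, so both went against their label. Each comparison is therefore given for the 12 libraries as labelled and for the 10 without these. Total estimated counts ran from 66490481 to 86891563 per library.

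The macrophage transcription factor PU.1 binds a purine-rich box, whose core letters GAGGAA were searched on both strands in promoters of 300 bases, 250 before and 50 after the transcript start. RefSeq promoters (build GRCm38.p6) were matched for 7 of the 10 genes. The letters occurred in 6 of these 7, against 28.3% of 32851 promoters of the same length, and Cx3cr1 was the one without a match. The longer form GAGGAAGT, which contains the first, occurred in C1qc alone among the 7, against 3.2% of the promoters. A match is a description of the letters and not a binding site, and a promoter without one shows only that the letters are not in this window. The promoters below belong to 2 pairs of genes whose levels varied together between libraries, C1qb with C1qc and Cx3cr1 with Mrc1. They lie at chr4:136886151-136886450 on the minus strand (C1qb), at chr4:136892865-136893164 on the minus strand (C1qc), at chr9:120068247-120068546 on the minus strand (Cx3cr1) and at chr2:14229164-14229463 on the plus strand (Mrc1). They are written 5′ to 3′ with each GAGGAA, or its reverse complement TTCCTC, in capitals.
C1qb: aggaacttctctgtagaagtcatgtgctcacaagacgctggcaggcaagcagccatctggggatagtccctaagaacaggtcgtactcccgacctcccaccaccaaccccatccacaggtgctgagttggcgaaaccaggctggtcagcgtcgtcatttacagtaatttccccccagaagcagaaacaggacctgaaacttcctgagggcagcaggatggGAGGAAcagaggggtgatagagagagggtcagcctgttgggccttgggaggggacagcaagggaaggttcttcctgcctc
C1qc: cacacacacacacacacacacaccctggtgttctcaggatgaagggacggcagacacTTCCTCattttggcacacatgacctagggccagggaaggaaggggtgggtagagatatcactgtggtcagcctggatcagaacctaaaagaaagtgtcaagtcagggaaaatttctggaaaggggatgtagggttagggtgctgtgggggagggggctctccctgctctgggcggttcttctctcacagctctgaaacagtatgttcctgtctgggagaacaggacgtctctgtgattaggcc
Cx3cr1: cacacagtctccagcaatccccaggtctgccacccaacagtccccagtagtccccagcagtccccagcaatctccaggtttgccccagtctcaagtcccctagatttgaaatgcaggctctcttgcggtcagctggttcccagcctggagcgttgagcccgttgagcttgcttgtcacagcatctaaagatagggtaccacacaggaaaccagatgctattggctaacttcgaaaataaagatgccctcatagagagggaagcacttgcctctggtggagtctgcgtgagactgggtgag
Mrc1: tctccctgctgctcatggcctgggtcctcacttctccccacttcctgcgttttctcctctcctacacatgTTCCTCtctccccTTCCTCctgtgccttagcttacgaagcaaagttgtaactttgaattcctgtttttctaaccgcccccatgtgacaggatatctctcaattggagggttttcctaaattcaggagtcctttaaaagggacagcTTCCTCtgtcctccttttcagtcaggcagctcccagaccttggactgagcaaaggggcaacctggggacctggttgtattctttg

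Per length, C1qa was the most abundant of the 10 genes, with a mean of 24.2 ± 7.08 TPM (SD, n = 12). Tyrobp followed with 23.5 ± 9.83 TPM, C1qb with 15.6 ± 5.33 TPM and C1qc with 11.2 ± 3.08 TPM. Aif1 averaged 7.12 ± 1.66 TPM and Mrc1 5.96 ± 1.28 TPM. The lowest levels were those of Cd68 with 3.23 ± 1.95 TPM, Csf1r with 3.05 ± 0.821 TPM, Trem2 with 2.42 ± 1.58 TPM and Cx3cr1 with 1.44 ± 0.674 TPM. Between neighbours in this order, the step from C1qc to Aif1 and that from Mrc1 to Cd68 exceeded the SD of both genes, and the other steps did not.

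In neither set of libraries did any of the 10 genes differ between Q84 and WT ganglia past the threshold, an adjusted p of 0.05 in edgeR's quasi-likelihood test with sex as a term. This was 0 of 10 genes in 12 libraries, where 0.0053% of all genes tested were called, and 0 of 10 in 10 libraries, where 6.45% were called. DESeq2 also called 0 of 10 in both, against 3.28% and 10.3% of all genes. At an unadjusted p of 0.05 edgeR counted 2 of 10 in each, Cx3cr1 and Mrc1, beside 14.3% of all genes in 12 libraries and 20.2% in 10. The log2 fold changes were positive for 8 genes and negative for 2 in both sets, while 52.6% and 52.3% of all genes were positive. Their median was 0.18 in 12 libraries and 0.21 in 10, against 0.01 over all genes in each. The direction of 6 of the 10 genes turned when 1 of 2 libraries was left out: without Q84 male 1 the 12-library values were positive for 4 genes and negative for 6, and without WT female 1 they were positive for 10.

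**Figure D1:**
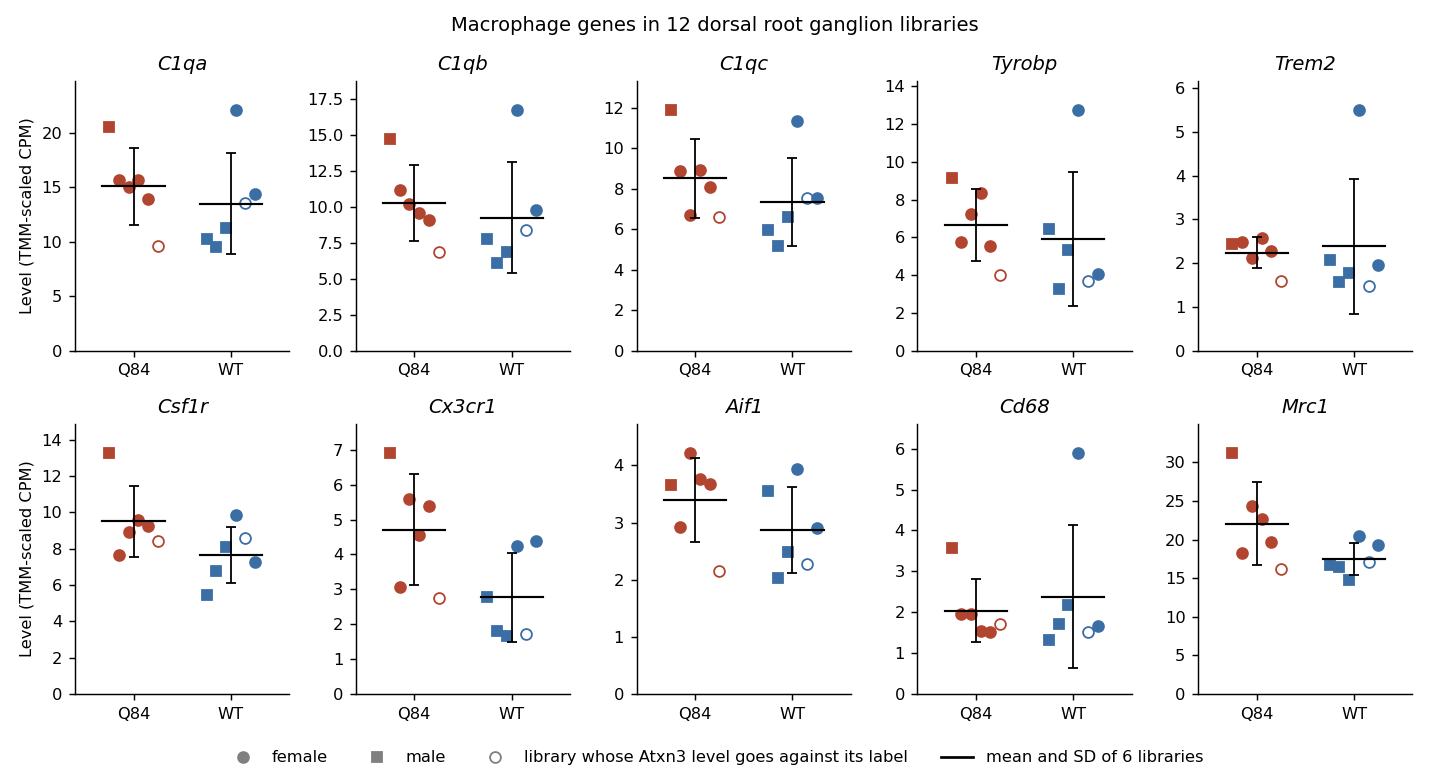
Level of each gene in every library, in TMM-scaled CPM, with Q84 on the left and WT on the right. Squares are males and circles females, open circles are Q84 female 5 and WT female 2, and bars give the mean and SD of 6 libraries. Q84 male 1 or WT female 1 is the highest library in 9 of the 10 panels, and the groups overlap in each.

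The complement chains C1qa, C1qb and C1qc had a wide and shared spread that crossed the genotypes. Levels are given as CPM, the counts divided by library totals after TMM scaling. C1qa lay at 20.5 CPM in Q84 male 1, at 15.7, 15.03, 15.7 and 13.9 CPM in Q84 females 1 to 4 and at 9.62 CPM in Q84 female 5. WT ganglia held C1qa at 10.3, 9.51 and 11.2 CPM in males 1 to 3, at 22.1 and 14.4 CPM in females 1 and 3 and at 13.5 CPM in female 2. Q84 male 1 and WT female 1 stood above every other library, and Q84 female 5 lay among the WT males. For C1qa the log2 fold change of Q84 over WT was 0.13 ± 0.21 (SE) in 12 libraries, with a 95% interval of -0.34 to 0.59 and an adjusted p of 0.843. C1qa came to 0.20 ± 0.21 in 10 libraries, with an interval of -0.27 to 0.67 and an adjusted p of 0.675. Both C1qa intervals included 0. C1qb encodes its partner chain. C1qb lay at 14.7 CPM in Q84 male 1, at 11.2, 10.2, 9.56 and 9.09 CPM in Q84 females 1 to 4 and at 6.84 CPM in Q84 female 5. WT ganglia held C1qb at 7.75, 6.08 and 6.84 CPM in males 1 to 3, at 16.7 and 9.75 CPM in females 1 and 3 and at 8.38 CPM in female 2. The same libraries were the highest, and the groups overlapped. For C1qb the log2 fold change of Q84 over WT was 0.12 ± 0.25 (SE) in 12 libraries, with a 95% interval of -0.41 to 0.65 and an adjusted p of 0.873. C1qb came to 0.16 ± 0.26 in 10 libraries, with an interval of -0.41 to 0.74 and an adjusted p of 0.800. Neither C1qb interval excluded 0. C1qc encodes the chain that completes the C1q subunit. C1qc lay at 11.9 CPM in Q84 male 1, at 8.88, 6.73, 8.92 and 8.09 CPM in Q84 females 1 to 4 and at 6.60 CPM in Q84 female 5. WT ganglia held C1qc at 5.95, 5.17 and 6.60 CPM in males 1 to 3, at 11.4 and 7.53 CPM in females 1 and 3 and at 7.53 CPM in female 2. WT male 2 was the lowest library for each of the 3 chains. For C1qc the log2 fold change of Q84 over WT was 0.19 ± 0.20 (SE) in 12 libraries, with a 95% interval of -0.23 to 0.62 and an adjusted p of 0.713. C1qc came to 0.25 ± 0.22 in 10 libraries, with an interval of -0.24 to 0.73 and an adjusted p of 0.603. Without Q84 male 1, the only Q84 male, the 12-library values were -0.25 for C1qa, -0.31 for C1qb and -0.17 for C1qc, so their sign turned. Without WT female 1 they were 0.36, 0.42 and 0.40 in the same order.

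TREM2 and its adaptor differed most in a single WT library. Tyrobp lay at 9.14 CPM in Q84 male 1, at 5.77, 7.21, 8.34 and 5.53 CPM in Q84 females 1 to 4 and at 4.01 CPM in Q84 female 5. WT ganglia held Tyrobp at 6.42, 3.28 and 5.31 CPM in males 1 to 3, at 12.7 and 4.03 CPM in females 1 and 3 and at 3.66 CPM in female 2. WT female 1 was the highest library and WT male 2 the lowest. For Tyrobp the log2 fold change of Q84 over WT was 0.16 ± 0.34 (SE) in 12 libraries, with a 95% interval of -0.58 to 0.91 and an adjusted p of 0.879. Tyrobp came to 0.12 ± 0.35 in 10 libraries, with an interval of -0.65 to 0.90 and an adjusted p of 0.898. The intervals of Tyrobp were among the widest of the 10 genes and included 0. Trem2, whose product needs this adaptor at the cell surface, was less abundant in TPM. Trem2 lay at 2.43 CPM in Q84 male 1, at 2.49, 2.11, 2.56 and 2.28 CPM in Q84 females 1 to 4 and at 1.60 CPM in Q84 female 5. WT ganglia held Trem2 at 2.06, 1.56 and 1.77 CPM in males 1 to 3, at 5.50 and 1.96 CPM in females 1 and 3 and at 1.47 CPM in female 2. WT female 1 held more Trem2 than any other library, and the next highest WT library, at 2.06 CPM, lay below Q84 male 1 and Q84 females 1 to 4. For Trem2 the log2 fold change of Q84 over WT was -0.17 ± 0.30 (SE) in 12 libraries, with a 95% interval of -0.82 to 0.47 and an adjusted p of 0.846. Trem2 came to -0.26 ± 0.28 in 10 libraries, with an interval of -0.88 to 0.36 and an adjusted p of 0.686. Without WT female 1 the Trem2 value turned positive, at 0.39 in 12 libraries and 0.34 in 10. The corresponding Tyrobp values were 0.75 and 0.79, with adjusted p of 0.238 and 0.0849. Without Q84 male 1, Tyrobp turned to -0.14 in 12 libraries and -0.32 in 10.

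The receptors CSF1R and CX3CR1 had positive values in every fit tried for this comparison, as did Aif1 and Mrc1, although none passed. Csf1r lay at 13.3 CPM in Q84 male 1, at 7.67, 8.93, 9.60 and 9.26 CPM in Q84 females 1 to 4 and at 8.43 CPM in Q84 female 5. WT ganglia held Csf1r at 5.43, 6.79 and 8.09 CPM in males 1 to 3, at 9.83 and 7.25 CPM in females 1 and 3 and at 8.61 CPM in female 2. Q84 male 1 was the highest library, and the other Q84 libraries lay within the WT range. For Csf1r the log2 fold change of Q84 over WT was 0.32 ± 0.17 (SE) in 12 libraries, with a 95% interval of -0.04 to 0.67 and an adjusted p of 0.405. Csf1r came to 0.40 ± 0.19 in 10 libraries, with an interval of -0.01 to 0.80 and an adjusted p of 0.263. Both Csf1r intervals reached just below 0. Cx3cr1 had the highest fold changes of the 10 genes. Cx3cr1 lay at 6.91 CPM in Q84 male 1, at 3.08, 5.59, 4.57 and 5.40 CPM in Q84 females 1 to 4 and at 2.74 CPM in Q84 female 5. WT ganglia held Cx3cr1 at 2.79, 1.81 and 1.66 CPM in males 1 to 3, at 4.25 and 4.38 CPM in females 1 and 3 and at 1.72 CPM in female 2. WT females 1 and 3 lay between Q84 female 1 and Q84 female 3, so the groups overlapped. For Cx3cr1 the log2 fold change of Q84 over WT was 0.75 ± 0.32 (SE) in 12 libraries, with a 95% interval of 0.06 to 1.43 and an adjusted p of 0.307. Cx3cr1 came to 0.72 ± 0.30 in 10 libraries, with an interval of 0.06 to 1.39 and an adjusted p of 0.206. The unadjusted p of Cx3cr1 was 0.0348 in 12 libraries and 0.035 in 10. Without Q84 male 1 the Cx3cr1 value was 0.31 in 12 libraries and 0.11 in 10, and that of Csf1r 0.04 and 0.05. The ligands of these receptors, Csf1, Il34 and Cx3cl1, had summed levels of 17.1 to 21.3 CPM in Q84 and 16.8 to 22.2 CPM in WT ganglia, and 0 of the 3 passed in either set.

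Among the remaining markers, Aif1 lay at 3.66 CPM in Q84 male 1, at 2.91, 4.22, 3.76 and 3.68 CPM in Q84 females 1 to 4 and at 2.15 CPM in Q84 female 5. WT ganglia held Aif1 at 3.55, 2.03 and 2.48 CPM in males 1 to 3, at 3.94 and 2.90 CPM in females 1 and 3 and at 2.28 CPM in female 2. Q84 female 2 was the highest library for Aif1, and the groups overlapped. For Aif1 the log2 fold change of Q84 over WT was 0.23 ± 0.21 (SE) in 12 libraries, with a 95% interval of -0.23 to 0.68 and an adjusted p of 0.684. Aif1 came to 0.22 ± 0.19 in 10 libraries, with an interval of -0.21 to 0.64 and an adjusted p of 0.603. Both Aif1 intervals included 0. Cd68, the lysosomal marker, was high in a pair of libraries. Cd68 lay at 3.56 CPM in Q84 male 1, at 1.95, 1.95, 1.53 and 1.50 CPM in Q84 females 1 to 4 and at 1.71 CPM in Q84 female 5. WT ganglia held Cd68 at 1.32, 1.70 and 2.19 CPM in males 1 to 3, at 5.89 and 1.65 CPM in females 1 and 3 and at 1.51 CPM in female 2. WT female 1 and Q84 male 1 were the highest libraries, and the other 10 lay between 1.32 and 2.19 CPM. For Cd68 the log2 fold change of Q84 over WT was -0.23 ± 0.38 (SE) in 12 libraries, with a 95% interval of -1.06 to 0.60 and an adjusted p of 0.843. Cd68 came to -0.30 ± 0.43 in 10 libraries, with an interval of -1.26 to 0.67 and an adjusted p of 0.774. Without WT female 1 the Cd68 value was 0.46 in 12 libraries and 0.54 in 10, and without Q84 male 1 it was -0.80 and -1.12. Mrc1, the mannose receptor gene, had its highest level in Q84 male 1. Mrc1 lay at 31.2 CPM in Q84 male 1, at 18.3, 24.3, 22.7 and 19.6 CPM in Q84 females 1 to 4 and at 16.1 CPM in Q84 female 5. WT ganglia held Mrc1 at 16.7, 16.4 and 14.7 CPM in males 1 to 3, at 20.4 and 19.3 CPM in females 1 and 3 and at 17.1 CPM in female 2. Q84 male 1 was the highest library, WT female 1 exceeded Q84 females 1 and 4, and Q84 female 5 lay within the WT range. For Mrc1 the log2 fold change of Q84 over WT was 0.36 ± 0.15 (SE) in 12 libraries, with a 95% interval of 0.03 to 0.68 and an adjusted p of 0.298. Mrc1 came to 0.42 ± 0.15 in 10 libraries, with an interval of 0.09 to 0.76 and an adjusted p of 0.141. The unadjusted p of Mrc1 was 0.0324 in 12 libraries and 0.0182 in 10. The smallest adjusted p of any of the 10 genes in the fits tried, 0.068, was that of Mrc1 in 10 libraries with length-scaled TPM. Without Q84 male 1 the Mrc1 value was 0.09 in 12 libraries and 0.10 in 10.

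**Figure D2:**
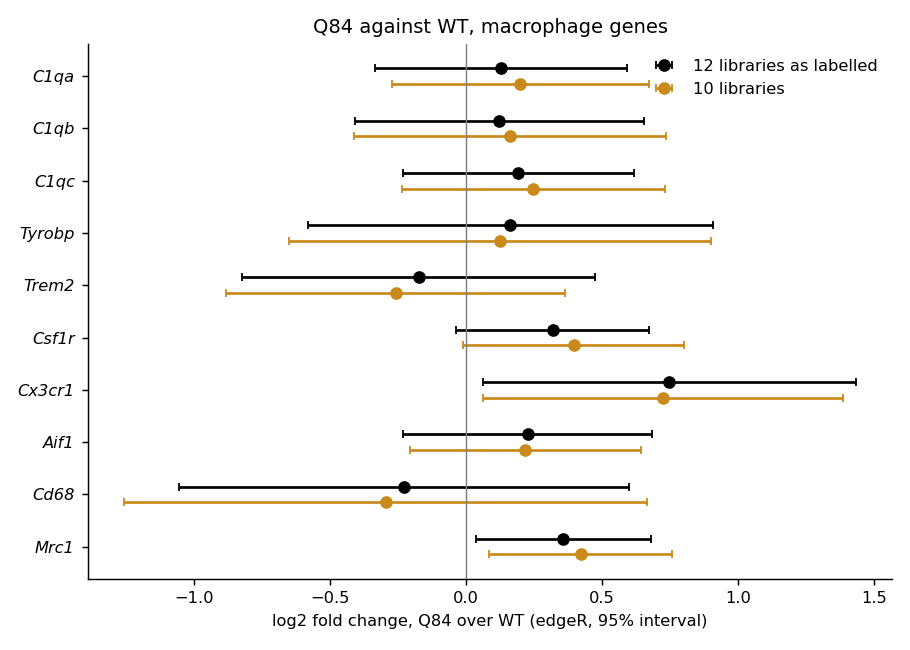
Log2 fold change of Q84 over WT for each gene from edgeR, with its 95% interval, for the 12 libraries as labelled (black) and for 10 libraries (ochre). The intervals include 0 for 8 of the 10 genes in both sets, and those of Cx3cr1 and Mrc1 lie above 0 before adjustment over all genes.

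**Figure D3:**
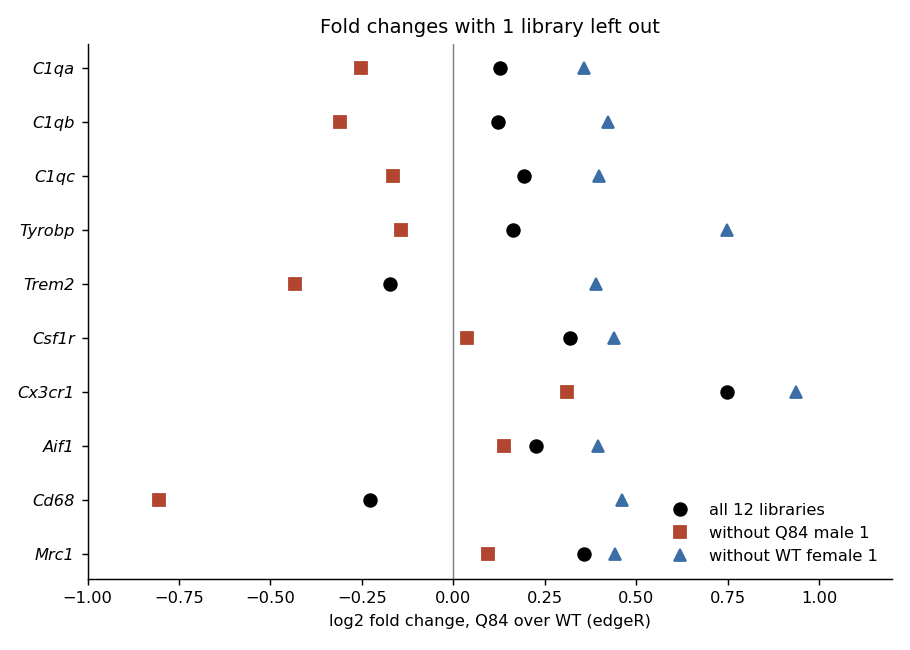
Log2 fold change of Q84 over WT in the 12 libraries (circles), without Q84 male 1 (squares) and without WT female 1 (triangles). The sign turns for C1qa, C1qb, C1qc and Tyrobp without Q84 male 1, and for Trem2 and Cd68 without WT female 1.

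Without Q84 male 1, the only Q84 male, the fit with sex as a term compares Q84 with WT among females only. The fit of the female libraries alone, 5 Q84 and 3 WT, makes the same comparison. Its signs had to be the same and are not a further check. Taken from the 12 libraries, C1qa was at -0.25, C1qb at -0.31, C1qc at -0.17 and Tyrobp at -0.14, and 0 of 10 genes passed. For the sexes, male over female with genotype as a term, 0 of 10 genes passed in edgeR, beside 0.0636% of all genes tested. DESeq2 also called 0, and 0 had an unadjusted p under 0.05, against 3.82% of all genes. The male over female values were negative for 8 genes and positive for 2, with a median of -0.09, against 49.3% positive over all genes. The lowest was that of Trem2, at -0.40 ± 0.32 (SE), and it was 0.10 without WT female 1.

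The spread between libraries was larger than that of most genes of like level. The coefficient of variation (CV, the SD as a percentage of the mean) of CPM ran from 22.5% for Csf1r to 58.9% for Cd68. Its median over the 10 genes was 30.3%, against 20.1% over all genes tested. Counting error alone gives a CV of 2.61% for Mrc1, which averaged 1473 estimated counts, to 7.73% for Cd68, which averaged 167. Set against genes whose mean CPM lay within 0.5 on the log2 scale, each of the 10 genes exceeded the median CV. The share of those genes with a lower CV ran from 60.0% for Aif1 to 95.6% for Tyrobp. Without WT female 1 the CV of Trem2 was 19.2%, against 46.2% in 12 libraries, and that of Cd68 was 32.8%. Without both Q84 male 1 and WT female 1, left out after the values were seen, the median CV was 19.4%. The 20.1% over all genes tested is for 12 libraries, so it is no like comparison for this value.

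Summed over the 10 genes, Q84 male 1 held 152.5 TPM and WT female 1 held 161.0 TPM, while the other 10 libraries held 64.8 to 103.1 TPM. Q84 male 1 was the highest library for C1qc, Csf1r, Cx3cr1 and Mrc1, and WT female 1 for C1qa, C1qb, Tyrobp, Trem2 and Cd68. Each was among the 2 highest libraries for 8 genes. WT male 2 was the lowest library for 5 genes. In the markers of other cells given here, Q84 male 1 and WT female 1 stood out in different lists. Granulocyte genes summed to 416.8 CPM in Q84 male 1 and 31.3 to 302.3 CPM in the other Q84 libraries, against 39.8 to 233.0 CPM in WT. None of the 10 was at 0 in any library, and 0 of 10 passed in either set. Red blood cell genes summed to 1826 CPM in Q84 male 1 and 274.3 to 1267 CPM in the other Q84 libraries, against 173.4 to 1033 CPM in WT. Adipocyte genes summed to 54.1 CPM in Q84 male 1 and to 25.003 CPM or less elsewhere. For granulocyte, red blood cell and adipocyte genes the highest WT library was WT male 1, at 233.0, 1033 and 9.71 CPM. WT female 1 held 192.0, 534.9 and 6.04 CPM in the same order. Summed over the 10 macrophage genes, WT male 1 held only 78.8 TPM. WT female 1 alone held the skin keratins Krt14, at 17.1 CPM, and Krt15, at 82.4 CPM, which lay at 0.122 CPM or less in the other libraries and were chosen after their values were seen. It also had the highest sums of inflammatory cytokines, at 19.9 CPM, and of damage-associated macrophage genes, at 1001 CPM. The latter sum was 507.0 to 675.7 CPM in Q84 and 509.7 to 775.8 CPM in the other WT libraries. Spp1 held 568.3 CPM and Fabp5 300.2 CPM of the 1001 CPM, so that sum speaks mainly for these genes. The part of the other cells in the values of the 10 genes was not tested.

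**Figure D4:**
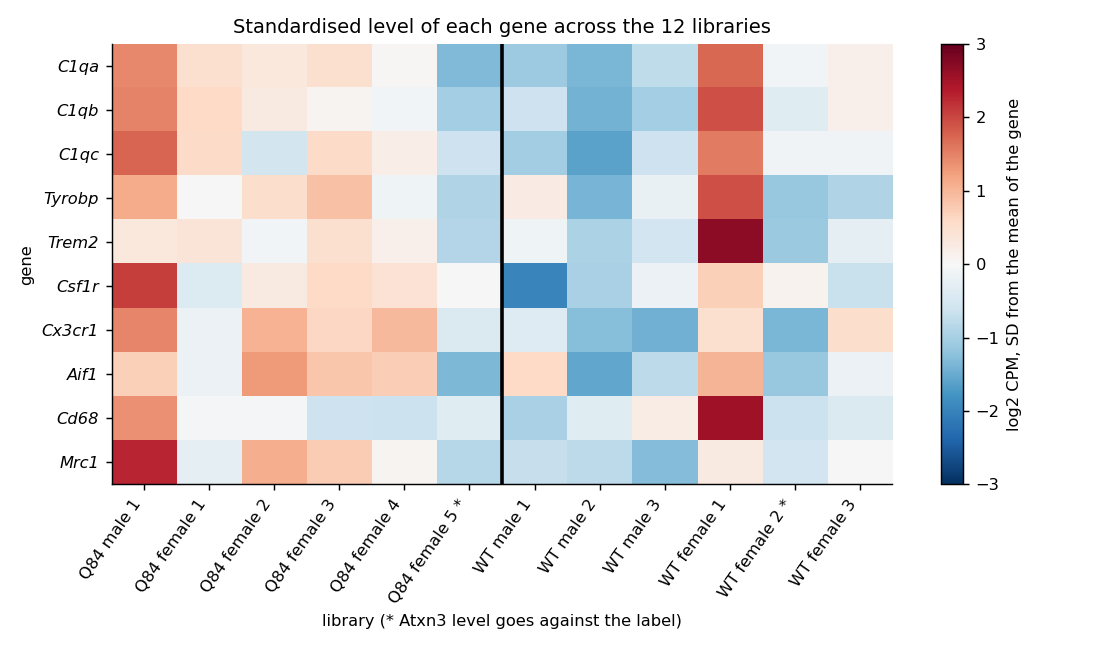
Level of each gene in each library as the number of SD from the mean of that gene over 12 libraries (log2 CPM), Q84 to the left of the line and WT to the right. The columns of Q84 male 1 and WT female 1 are above 0 (red) in each row, and that of WT male 2 is below 0 (blue) in each row.

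The 10 genes varied together. All 45 pairs had a positive Pearson r of log2 CPM over the 12 libraries, with a median of 0.70 and a range of 0.32 to 0.97. After adjustment over the 45 pairs, 34 passed by Pearson's r and 31 by Spearman's rho in permutation tests with 100000 resamples. Levels were also taken as deviations from the mean of their own group of genotype and sex, in the 11 libraries whose group has more than 1. Of these pairs 44 of 45 were positive, and 21 passed by Pearson's r and 15 by Spearman's rho. The permutation treated the deviations as free of each other, although those of a group add to 0. Its p-values may therefore be too small. Without Q84 male 1 and WT female 1, a choice made after seeing the data, 41 pairs were positive, their median r was 0.59, and 9 passed by Pearson's r and 11 by Spearman's rho. The 9 were the 3 pairs of C1q chains, Tyrobp with Trem2, and Aif1 with Tyrobp, Trem2, Cx3cr1 and Mrc1, together with Cx3cr1 and Mrc1. None of these counts of pairs was set against pairs of other genes in the same libraries. They do not show how far the members exceed such pairs.

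The C1q chains were the closest group. C1qa and C1qb had r = 0.97 and rho = 0.94 with an adjusted permutation p of 0.00045 for r, and r = 0.95 without the 2 libraries farthest from the median of C1qa. C1qa and C1qc had r = 0.93 and rho = 0.94, and r = 0.88 without those libraries, while C1qb and C1qc had r = 0.91, rho = 0.85 and r = 0.80 without the 2 farthest. In TPM, C1qa exceeded C1qb by a ratio of 1.57 ± 0.12 (SD, n = 12), with a range of 1.40 to 1.74, and C1qb exceeded C1qc by 1.38 ± 0.18, with a range of 1.17 to 1.71. The C1qa to C1qb ratio had a CV of 7.83%, and it averaged 1.57 ± 0.10 in Q84 and 1.58 ± 0.15 in WT ganglia (SD, n = 6 each). The 3 genes are neighbours on chromosome 4. Other ratios were looser: that of Cx3cr1 to Csf1r had a CV of 35.5% and that of Cd68 to C1qa one of 33.1%.

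**Figure D5:**
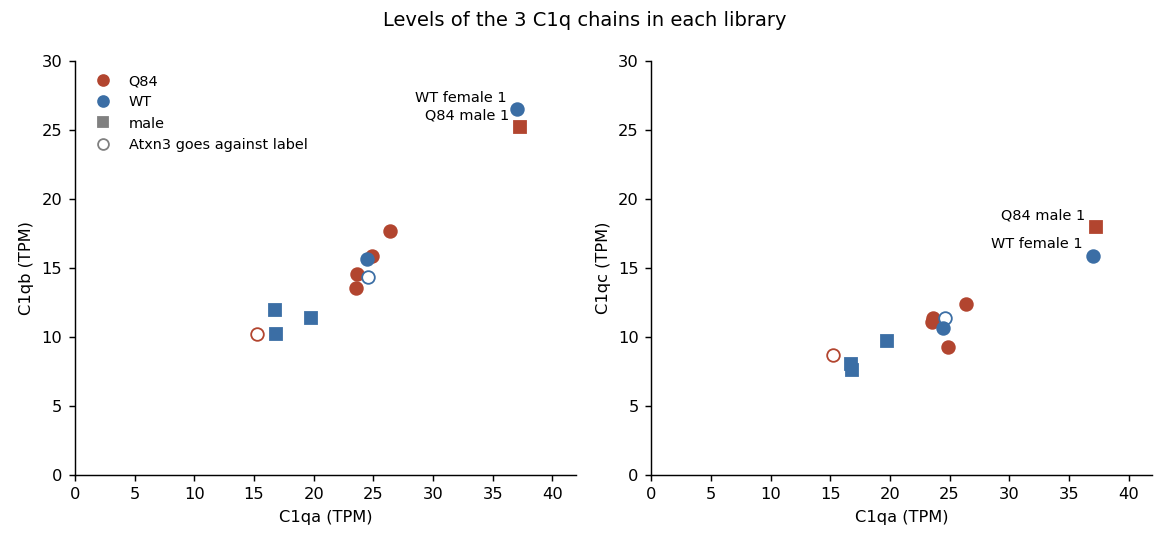
Levels of C1qb (left) and C1qc (right) against C1qa in each library, in TPM, with Q84 in red and WT in blue, males as squares, females as circles and Q84 female 5 and WT female 2 open. Points lie along a line through both genotypes, and Q84 male 1 and WT female 1 lie at its upper end in both panels.

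Cx3cr1 and Mrc1 had r = 0.86 and rho = 0.92, with an adjusted permutation p of 0.00108 for r, and r = 0.86 without the 2 farthest libraries. Tyrobp and Trem2 had r = 0.87 and rho = 0.90, and r = 0.81 without the 2 farthest. Tyrobp and Aif1 had r = 0.84 and rho = 0.88, and r = 0.81 without them. The r of Cd68 with C1qb was 0.76, with rho = 0.46, and was 0.02 without Q84 male 1 and WT female 1, so that relation rests on these libraries. Its r with Cx3cr1 was 0.32, the lowest of the 45.

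The members differed in how their counts were spread over transcripts. C1qa and C1qb have 1 listed transcript each, and 1 transcript held 99.9% of the C1qc counts. For Trem2 a coding transcript of 1088 bases held 45.3% of counts and a transcript of 4784 bases with a retained intron held 44.2%. The 1088-base transcript took 51.4 ± 12.4% of Trem2 counts in Q84 and 32.9 ± 13.8% in WT ganglia (SD, n = 6 each), with ranges of 30.3 to 66.2% in Q84 and 20.2 to 57.3% in WT, which overlap. The highest WT share, 57.3%, was that of WT female 1, the library with the most Trem2. Csf1r counts fell mainly on coding transcripts of 3870 and 4701 bases. The shorter one took 40.9 to 89.1% of counts in Q84 male 1 and Q84 females 1 to 4, 0% in Q84 female 5, and 40.6 to 79.7% in WT ganglia. Tyrobp counts lay on its 597-base transcript to 89.6% or more in Q84 male 1 and Q84 females 1 to 4, to 46.0% in Q84 female 5 and to 66.8 to 99.2% in WT ganglia. For Mrc1 a 5374-base transcript held 92.4% and one with a retained intron 7.60%. Estimated counts divide reads shared between transcripts by likelihood, so these shares are uncertain. The span of Cx3cr1 in the annotation overlaps 9 other genes and that of Csf1r overlaps Hmgxb3 on the other strand, and whether counting used strand is not stated in the sources used here.

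Among the genes whose log2 CPM correlated most with the mean standardised level of the members over 12 libraries were Cd300c2, Adgre1, C3ar1, H2-Eb1, Fcer1g, Cyba, Slfn8, Ctss and Pld4. Their r ran from 0.98 for Cd300c2 to 0.91 for Pld4, with 0.95 for Adgre1. Cd300c2 encodes a receptor of the CD300 family on myeloid cells, and Adgre1 the macrophage marker F4/80. Q84 male 1 was the highest library for Adgre1, H2-Eb1 and Pld4, and WT female 1 for the other 6. For single members the closest genes were F11r for C1qa (r = 0.94) and C1qb (r = 0.96), Cmtm7 for C1qc (r = 0.93), Lyz2 for Tyrobp (r = 0.96) and Anxa1 for Trem2 (r = 0.97). For the others they were Flna for Csf1r (r = 0.94), Epsti1 for Cx3cr1 (r = 0.92) and Evi2a for Aif1 (r = 0.92), with Fam25c for Cd68 (r = 0.95) and Agpat2 for Mrc1 (r = 0.91). Fam25c averaged only 0.040 CPM, with WT female 1 as its highest library. These are descriptions over 12 libraries that share their depth and makeup.

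Related gene lists gave few calls. In 12 libraries 0 genes of any list passed, at a background of 0.0053%. In 10 libraries the background was 1.52% for higher and 4.93% for lower genes. Among 8 microglia genes 2 rose, the purine receptor genes P2ry12 and P2ry13, and 6 did not pass. P2ry13 averaged 1.68 ± 0.37 CPM in 5 Q84 and 0.99 ± 0.07 CPM in 5 WT ganglia (SD), a log2 fold change of 0.83 ± 0.19 (SE) with an adjusted p of 0.022 that was lost without WT female 3 or Q84 male 1. For P2ry12 the value was 0.45 ± 0.12 with an adjusted p of 0.040, lost in 8 of 10 fits that left out 1 library and kept without WT male 1 or Q84 female 2, and both genes lie within Med12l on the other strand. In the TREM2 and TYROBP pathway 1 of 14 genes rose, the lectin gene Siglech, by 0.79 ± 0.19 on the log2 scale with an adjusted p of 0.031 that was lost in 6 of 10 such fits, those without Q84 male 1, Q84 female 2, Q84 female 3, WT male 2, WT male 3 or WT female 3.

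Among 20 pan-macrophage and myeloid genes 1 fell, Ly86, which encodes a partner of the Toll-like protein CD180. Ly86 lay at 16.3 to 24.5 CPM in Q84 male 1 and Q84 females 1 to 4 and at 194.3 CPM in Q84 female 5. It lay at 94.0 to 188.3 CPM in 5 WT libraries and at 29.2 CPM in WT female 2. Ly86 was lowest in Q84 male 1 and stood at 136 CPM in WT female 1, the libraries with the highest sums of the 10 genes. Its log2 fold change in 10 libraries was -2.90 ± 0.13 (SE) with an adjusted p of 3.59e-07, and the call was kept in the 10 fits that left out 1 library. Of 12 complement partners of C1q 1 fell, Cd55, which encodes a brake on complement activation, with a value of -1.58 ± 0.09 (SE) and an adjusted p of 1.34e-06. Of 10 lysosomal genes 3 fell, the protease genes Ctsl at -0.62 ± 0.09 (adjusted p = 0.00143) and Lgmn at -0.51 ± 0.09 (adjusted p = 0.00363) and the membrane protein gene Lamp2 at -0.32 ± 0.08 (adjusted p = 0.0372). The Lamp2 call was lost in 8 of 10 fits and kept without Q84 female 3 or WT male 1. In 10 libraries 0 of 12 resident macrophage, 0 of 10 damage-associated, 0 of 7 MHC class II, 0 of 8 monocyte, 0 of 9 cytokine and chemokine and 0 of 7 interferon-response genes passed.

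Among other cell types, 2 of 9 lymphocyte genes fell in 10 libraries, Cd3e and Cd8a, both at 2.45 CPM or less in each library. Cd3e was lost without Q84 male 1, Q84 female 3, Q84 female 4, WT male 2 or WT female 1, and Cd8a without Q84 male 1 or WT female 3. Cadm2 of 6 satellite glia genes rose by 0.75 ± 0.12 on the log2 scale, Pdgfra of 7 fibroblast genes by 0.61 ± 0.10 and Retn of 6 adipocyte genes by 2.25 ± 0.59 (SE). The Pdgfra call was lost without Q84 male 1, and that of Retn in 8 of 10 fits, kept without Q84 female 3 or WT female 3. The Retn value was 0.86 on the log2 scale without Q84 male 1. No gene passed among 10 granulocyte, 4 mast cell, 6 cell division, 6 Schwann cell, 7 neuronal, 6 endothelial and 5 red blood cell genes.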

How the data were processed

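Poly(A) RNA of 12 ganglion libraries was sequenced, per the labels' protocols. The submitters' processing notes list GRCm39, kallisto 0.46.2 and STAR 2.7.10b but give them no role. Each deposited table holds the authors' estimated counts, lengths and TPM for 116313 transcripts, per the file headers. GENCODE M21 linked transcripts to genes by Ensembl identifier (98.3% matched, and unmatched transcripts held 0.751 to 0.804% of counts). Because that annotation is of another build, it gave names, transcript types and the order and overlap of genes, and no coordinates. The counts of a gene's transcripts were added and the sum rounded. Genes were filtered with filterByExpr, scaled with TMM and tested with edgeR 4.0.16 (quasi-likelihood, robust, sex and genotype as terms, Benjamini-Hochberg threshold 0.05). Alternatives were DESeq2 1.42.0, voom in limma 3.58.1, other scaling, other filters, TPM scaled to length, the replicate number as a block, and leaving out single libraries. Relations between members used log2 CPM without a prior count, or log2 of TPM plus 0.1, with permutation tests. The search for the most-like genes used log2 CPM with a prior count of 2 and no test. CVs from counting cover counting error only.

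The members and lists were chosen with earlier results of these data known, as was leaving out WT female 2 and Q84 female 5. Named genes were the 10 members, list genes that passed and otherwise up to 3 per list of highest mean CPM, the 10 genes most like the mean of the members and the 3 most like each member. Of these, list genes that did not pass are given mostly within the counts of their list, 1 most-like gene per member is named, and 1 gene that the rule names is not reported here. Replicates of a group differed by more than sampling noise, with a chi-square per degree of freedom of 28.9 or more.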

Additional observations from a re-analysis of the deposited data

Results flagged for a closer look

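The 6 Q84 and the 6 WT libraries for each of the 10 genes make 20 groups. Of these, 6 had a library at the upper end that stood far from the rest. In independent groups of normal values, chance gives about 1 in 20. These groups share the same libraries and the genes varied together, so that rate does not apply to the 6. Among Q84 ganglia the flagged library is also the only male, so sex and library cannot be told apart. Q84 male 1 was that library for Csf1r, at 13.3 CPM, and for Cd68, at 3.56 CPM, among Q84 ganglia. WT female 1 was that library for C1qb, at 16.7 CPM, for Tyrobp, at 12.7 CPM, for Trem2, at 5.50 CPM, and for Cd68, at 5.89 CPM, among WT ganglia. No other gene of the 10 had such a library in either group.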

How the results depend on the processing

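In each alternative run, 0 of the 10 genes passed, which covers 24 fits for Q84 against WT in 12 libraries, 22 in 10 libraries and 17 for the sexes. The sign of the fold change held in 220 of 230 gene values in 12 libraries, 199 of 210 in 10 libraries and 142 of 160 for the sexes. Among female libraries alone it turned for C1qa (-0.25 in 12 libraries, -0.26 in 10), C1qb (-0.31, -0.39), C1qc (-0.17, -0.19) and Tyrobp (-0.14, -0.30). Within WT libraries alone, male over female turned to -0.34 for Csf1r and -0.25 for Mrc1. The cause was not tested.

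Leaving out 1 library at a time, the 12-library log2 fold changes ran from -0.25 to 0.36 for C1qa, -0.31 to 0.42 for C1qb, -0.17 to 0.40 for C1qc, -0.14 to 0.75 for Tyrobp, -0.43 to 0.39 for Trem2 and -0.80 to 0.46 for Cd68. In 10 libraries they ran from -0.27 to 0.50 for C1qa, -0.41 to 0.53 for C1qb, -0.21 to 0.53 for C1qc, -0.32 to 0.79 for Tyrobp, -0.66 to 0.34 for Trem2 and -1.12 to 0.54 for Cd68. For male over female the ranges were -0.76 to 0.0632 for C1qb, -0.58 to 0.0644 for C1qc, -0.45 to 0.46 for Tyrobp, -0.73 to 0.10 for Trem2, -0.34 to 0.15 for Csf1r, -0.73 to 0.0189 for Cx3cr1, -0.19 to 0.0848 for Aif1, -0.80 to 0.53 for Cd68 and -0.25 to 0.16 for Mrc1.

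The number of pairs that passed by Pearson's r was 34 in 12 libraries, 33 in TPM, 21 for deviations from group means in 11 libraries and 9 in the 10 libraries without WT female 1 and Q84 male 1, and by Spearman's rho it was 31, 15, 15 and 11 in the same order. The median CV ran from 24.5 to 31.9% when 1 library was left out. With the replicate number as a block 0 of 10 genes passed in either set. Over all genes 639 were then called against 1 in 12 libraries, and 701 against 1208 in 10. Only Q84 female 4 and Q84 female 5 bear the numbers 4 and 5, so the block takes both out of the genotype comparison. In the set of 10 this concerns Q84 female 4 alone. Leaving Q84 female 5 out of the 12, without a block, gave 1082 calls. Deviations of same-numbered libraries correlated by -0.13 to 0.24, so the numbers are not taken as pairs. Among list genes called in 10 libraries, the adjusted p with this block was 0.104 for Siglech, 0.126 for P2ry12, 0.163 for Lamp2, 0.0651 for Cd3e, 0.103 for Cd8a and 0.174 for Retn, while P2ry13, Ly86, Cd55, Ctsl, Lgmn, Cadm2 and Pdgfra passed. Over all genes in 12 libraries, edgeR called 15 with no filter on low counts, 15 with scaling to the total count and 193 with no sex term, and DESeq2 called 620. In 10 libraries DESeq2 called 1933, and for the sexes it called 21 against 12. Only 1 library is a Q84 male, and lowly counted members such as Cd68, with 101 estimated counts in its lowest library, carry more counting error.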
